A study of Homo sapiens with 6 samples.

Results

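The mRNAs described here encode protein disulfide isomerases and oxidases of the secretory pathway. Membership was set by gene symbol alone, for P4HB, PDIA3, PDIA4, PDIA5, PDIA6, TXNDC5, ERP29, ERP44 and QSOX1, and all 9 had at least 1 site among the 8204 genes with a site in any of 6 libraries. The libraries hold RNA fragments that came down with AEG-1, the product of MTDH and a membrane protein of the endoplasmic reticulum (ER). They were made from AEG-1-14, a line built on HepG3, called a hepatoblastoma line in the labels, that stably expresses C-terminally HA-tagged AEG1. The groups are HITS-CLIP AEG1 (2 libraries, UV at 254 nm), HITS-CLIP negative control (2 libraries, no UV), PAR-CLIP AEG1 (1 library, UV at 365 nm) and PAR-CLIP negative control (1 library, no UV). All cells of all 4 groups carry the tagged protein, so the controls show what the anti-HA precipitation recovers without a UV bond and not what it recovers without the tag.

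Proteins that enter the ER fold in an oxidising space where cysteines are paired into disulfide bonds. Isomerases with thioredoxin-like domains form, break and reshuffle these bonds through a pair of active-site cysteines, and oxidases such as the ERO1 proteins and peroxiredoxin PRDX4 keep them charged. Cells of hepatic origin make large amounts of such proteins, since albumin, clotting factors and apolipoprotein B all carry disulfides. The mRNAs of these proteins are translated at the ER membrane, where AEG-1 also sits.

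A site is a stretch of an mRNA listed in the deposited file of a library, with a start, an end and a score on a log2 scale. The libraries held 6378 and 5651 sites in HITS-CLIP AEG1 against 60 and 90 in its controls, and 60085 in PAR-CLIP AEG1 against 121 in its control, and since no read counts were given, sequencing depth is unknown. All 9 markers of hepatocytes and hepatoblastoma that were looked up had a site in both HITS-CLIP AEG1 libraries, such as AFP with 15 and 14 against 0 and 0 in the controls. ALB and SERPINA1 also had sites in the controls, with 5 and 10 ALB sites in HITS-CLIP AEG1 against 11 and 9 in its controls, and 3 in PAR-CLIP AEG1 against 13 in its control. SERPINA1 had 6 and 5 against 1 and 2 in HITS-CLIP and 10 against 4 in PAR-CLIP. A site in both HITS-CLIP AEG1 libraries was also found on 2 of 9 markers of other cell types (CD68 and LYZ). The labels do not say whether separate cultures stand behind the HITS-CLIP replicates, so the spread between them may be technical.

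The mRNAs of 8 of the 9 proteins carried several AEG1 sites in each HITS-CLIP replicate, and the unirradiated controls were almost empty of them. The 9 mRNAs together held 78 and 61 sites in HITS-CLIP AEG1 against 0 and 1 in the HITS-CLIP controls, or 69.5 ± 12.0 against 0.5 ± 0.707 (SD, n = 2 each). In PAR-CLIP they held 71 sites in the AEG1 library against 1 in the control, and with 1 library per group this difference has no replicate check. The members with more sites in both HITS-CLIP AEG1 libraries than in both controls numbered 8, where 15.5% of the 8204 listed genes met the same rule. With at least 2 sites required in each AEG1 library the members numbered 8 (8.03% of listed genes), and with at least 5 sites they numbered 6 (3.63%). When sites at or below the median score of their library were left out, 2 members met the first rule and the mean difference between AEG1 and control fell to 6 sites, against 69 with all sites. This filter compares scores between mRNAs, and whether scores share a scale between mRNAs is unknown. In PAR-CLIP all 9 had at least 2 times as many sites in AEG1 as in the control, but 97.5% of the listed genes did too, and 97.6% had at least 1 site there, so the PAR-CLIP count says nothing about these mRNAs. An exact two-sided permutation test of 2 against 2 libraries cannot give a p below 0.333, and no test was made.

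**Figure D1:**
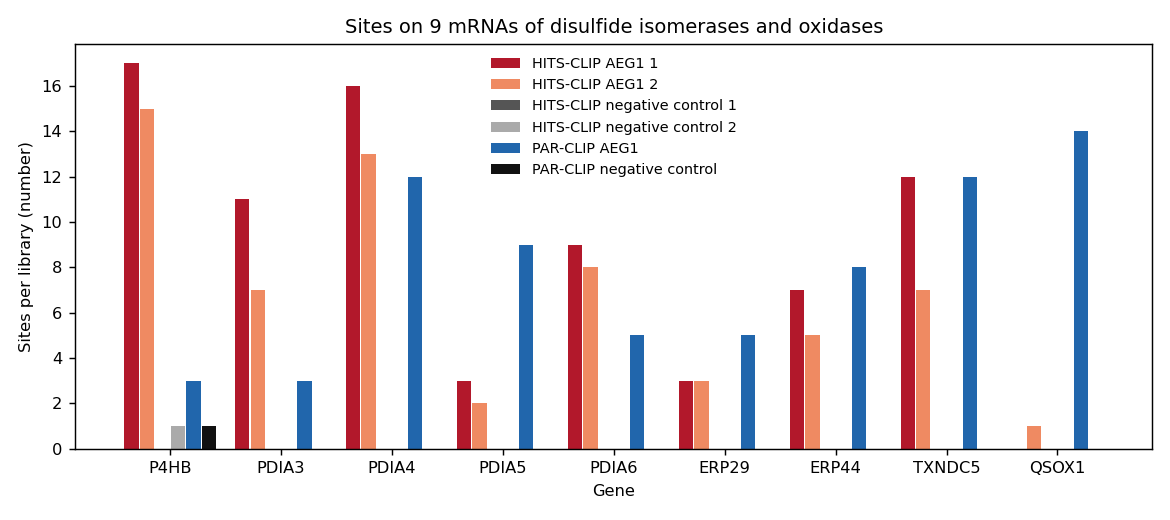
Number of sites on each mRNA (vertical axis) in each of the 6 libraries (bars of 1 gene on the horizontal axis). P4HB reaches 17 and 15 sites in HITS-CLIP AEG1, QSOX1 only 0 and 1, and the control bars are at 0 except for P4HB.

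P4HB, the founding protein disulfide isomerase and also the beta subunit of prolyl 4-hydroxylase and of the microsomal triglyceride transfer protein, had 17 and 15 sites in HITS-CLIP AEG1 against 0 and 1 in the controls, and 3 in PAR-CLIP AEG1 against 1 in its control. It was the only member with a control site in any library; 1.15% of all listed genes had a site in either HITS-CLIP control, and 0.804% had a site in the control of PAR-CLIP. HITS-CLIP AEG1 sites covered 1712 and 1839 nt of the P4HB mRNA (NM_000918), running from nt 164 to 2515 in replicate 1 and from nt 136 to 2506 in replicate 2. Gaps separated the sites, which covered 67.1% and 72.1% of the mRNA up to its last covered base, and each of the 17 and 15 sites overlapped a site of the other replicate.

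The low number of PAR-CLIP sites on P4HB went with their width. A single PAR-CLIP site ran from nt 134 to 1767 and overlapped 11 and 10 HITS-CLIP sites, and the remaining pair of sites ended at nt 2312 and 2551. The control sites lay inside wider AEG1 sites with higher scores. The HITS-CLIP control site, nt 817 to 871, scored -0.89, against 5.05 and 4.72 for the HITS-CLIP AEG1 sites over it. The PAR-CLIP control site, nt 1305 to 1340, scored 0.19, against 7.05 for the PAR-CLIP AEG1 site over it. The control sites were 55 and 36 nt wide, and the AEG1 sites over them 133 nt in HITS-CLIP and 1634 nt in PAR-CLIP. On the members, wider sites tended to score higher, with a median Spearman correlation of 0.852 over 16 lists of sites (0.276 to 1.0). The part of width in these score gaps was not tested.

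PDIA3, or ERp57, which acts on glycoproteins together with the lectins calnexin and calreticulin, had 11 and 7 sites in HITS-CLIP AEG1 and 3 in PAR-CLIP AEG1, with none in any control. Replicate 2 joined into a single site, nt 902 to 1425 with a score of 7.36, what replicate 1 listed as several sites led by nt 898 to 1145 with a score of 6.30. The PAR-CLIP site over them spanned nt 154 to 1478 and scored 8.04. The gene has processed copies, PDIA3P1 and PDIA3P2 in the RefSeq table, and fragments may belong to either, so its values are uncertain in that respect; ERP29 has such a copy as well (ERP29P1).

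PDIA6, or P5, an isomerase that works alongside the chaperone BiP, had 9 and 8 sites in HITS-CLIP AEG1 and 5 in PAR-CLIP AEG1, again with none in the controls. Its highest-scoring HITS-CLIP sites overlapped between replicates, nt 972 to 1209 (score 5.47) in replicate 1 and nt 869 to 1107 (score 5.51) in replicate 2. PDIA4, or ERp72, a larger isomerase, had 16 and 13 sites in HITS-CLIP AEG1, 12 in PAR-CLIP AEG1 and none in the controls. Its HITS-CLIP sites were narrower than those on P4HB, the widest being 151 and 146 nt against 229 and 229 nt on P4HB. The highest scores were 7.12 (nt 1581 to 1731) and 6.20 (nt 1535 to 1570) in the HITS-CLIP replicates, at adjoining sites that did not overlap, and 7.68 in PAR-CLIP at nt 1500 to 1985, which spanned both.

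TXNDC5, or ERp46, an isomerase that passes on disulfides made by peroxiredoxin PRDX4, had 12 and 7 sites in HITS-CLIP AEG1 and 12 in PAR-CLIP AEG1. The replicates differed most here in covered length, with 977 and 598 nt. PDIA5, or PDIR, an isomerase with several thioredoxin-like domains, had 3 and 2 sites in HITS-CLIP AEG1 and 9 in PAR-CLIP AEG1. On PDIA5 a single place was seen in both replicates, nt 851 to 875 in replicate 1 and nt 845 to 873 in replicate 2, with scores of 3.78 and 6.36. Neither gene had a control site.

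ERP29 has the fold of an isomerase but not its active-site cysteine pair and acts as a chaperone and escort. It had 3 sites in each HITS-CLIP AEG1 library and 5 in PAR-CLIP AEG1. The 3 places repeated closely, at nt 261 to 321, 546 to 593 and 636 to 701 in replicate 1 and nt 266 to 344, 546 to 618 and 633 to 701 in replicate 2. ERP44, which binds ERO1 proteins and unassembled clients through a cysteine and returns them from the Golgi to the ER, had 7 and 5 sites in HITS-CLIP AEG1 and 8 in PAR-CLIP AEG1. The HITS-CLIP sites on ERP44 were confined to nt 642 to 1135, while PAR-CLIP sites ran from nt 74 to 1802. Neither mRNA had a site in a control.

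QSOX1, a flavin-dependent sulfhydryl oxidase of the Golgi and the extracellular space that makes disulfides without an isomerase, stood apart among the members. It had 0 and 1 sites in HITS-CLIP AEG1 and 14 in PAR-CLIP AEG1, the highest PAR-CLIP number of the 9, with none in the controls. Its PAR-CLIP sites were narrow, at most 113 nt wide, whereas the widest PAR-CLIP site on P4HB covered 1634 nt. The single HITS-CLIP site, nt 1615 to 1659 with a score of 7.86, overlapped a PAR-CLIP site at nt 1616 to 1655 with a score of 6.54 and scored above every PAR-CLIP site of the same mRNA (highest 7.54). QSOX1 was thus the member without a call in HITS-CLIP, although a site was present in 1 of the 2 AEG1 libraries.

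**Figure D2:**
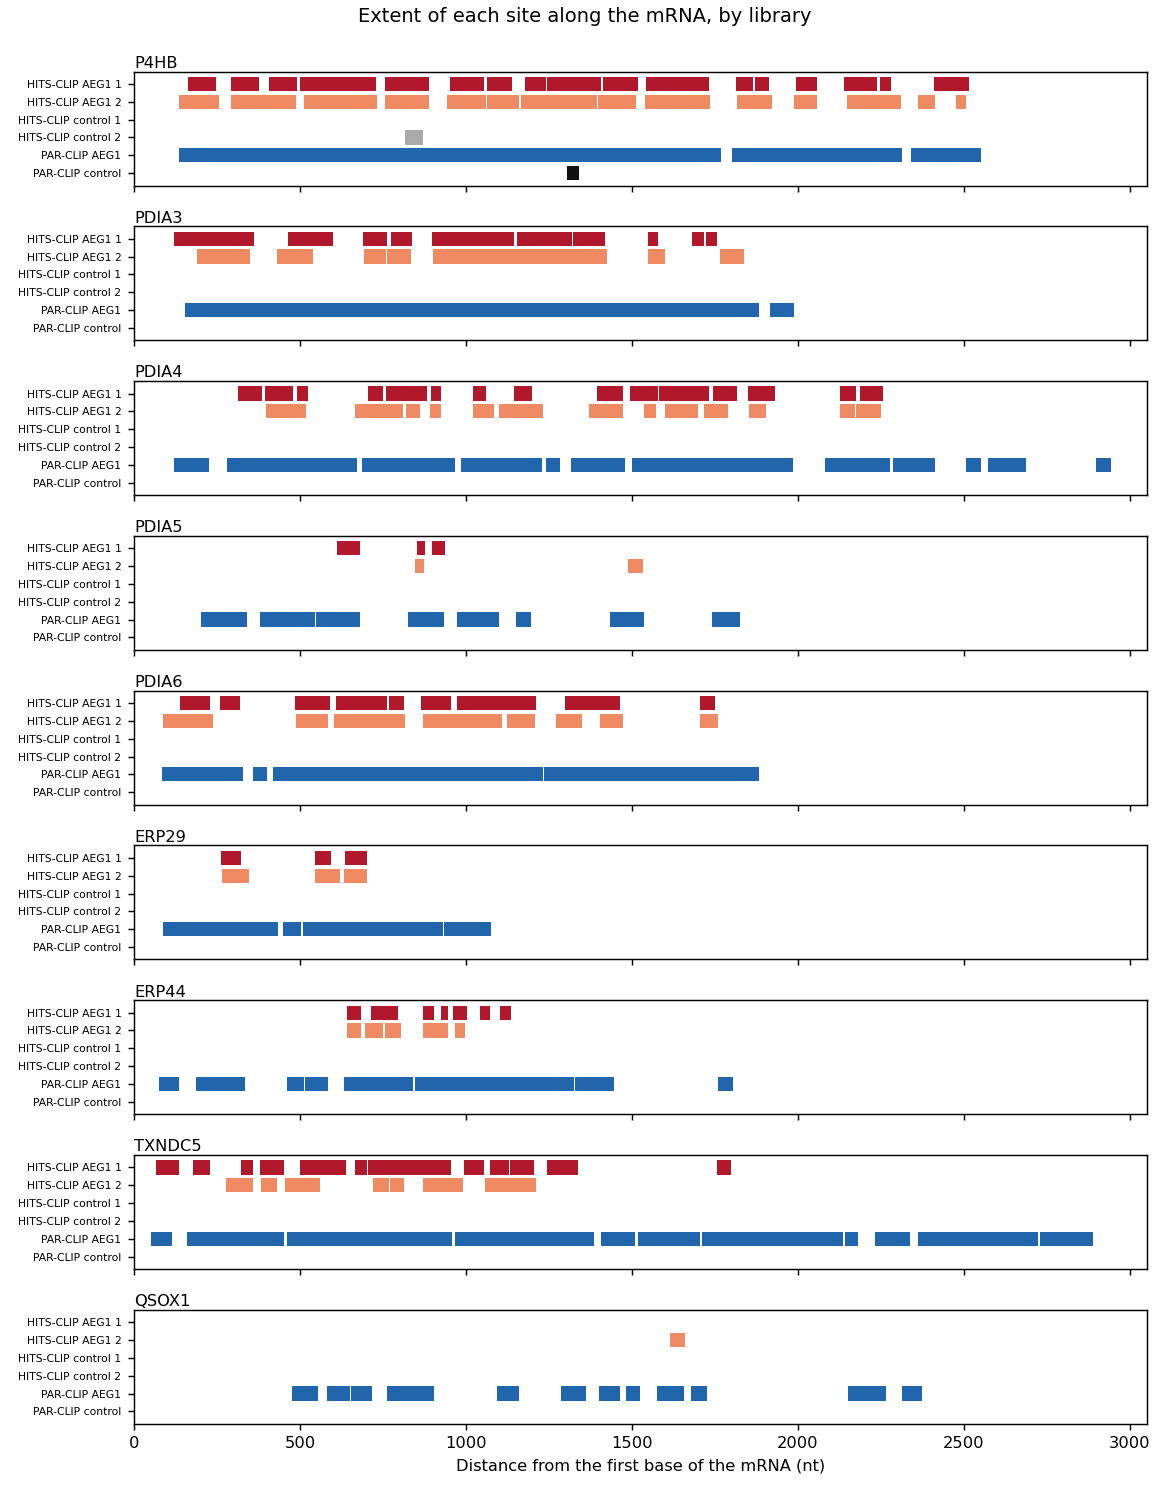
Extent of every site along each of the 9 mRNAs (horizontal axis, distance from the first base of the mRNA in nt), with 1 row per library. HITS-CLIP sites on P4HB are spread up to nt 2515 and those on ERP44 end at nt 1135, while PAR-CLIP sites continue to nt 2551 and 1802.

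Divided by length, the members formed a graded order. Covered nt are given as a share of the mRNA from its first base to the last base that any library covers, since full mRNA lengths were not used here. On every member that last base was covered by PAR-CLIP AEG1, so PAR-CLIP sets the length for both methods. In HITS-CLIP AEG1 the share was 69.6% ± 3.52 for P4HB, 54.8% ± 2.28 for PDIA3, 52.8% ± 0.638 for PDIA6 and 35.3% ± 0.937 for PDIA4 (SD, n = 2 each). It was 27.3% ± 9.28 for TXNDC5, 18.5% ± 3.03 for ERP29, 14.9% ± 1.26 for ERP44, 5.73% ± 2.29 for PDIA5 and 0.948% ± 1.34 for QSOX1 (SD, n = 2 each). PDIA3 and PDIA6 were not separated, with replicate values of 56.4% and 53.2% against 53.3% and 52.4%. TXNDC5 (33.8% and 20.7%) differed from both its neighbours, PDIA4 (36.0% and 34.7%) and ERP29 (16.3% and 20.6%), by less than the SD of TXNDC5. For the remaining neighbours in the order the replicate values did not overlap.

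In PAR-CLIP AEG1 the covered share ran from 92.9% on PDIA6 and 92.4% on P4HB to 38.0% on QSOX1. PDIA5 had 49.6%, ERP44 65.2% and PDIA4 76.2%, and the remaining members between 89.6% and 91.9%. QSOX1 and PDIA5 were lowest in both methods. No total RNA library was analysed here, so the amount of each mRNA in the cells was not measured, and the part of mRNA abundance in this order was not tested.

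**Figure D3:**
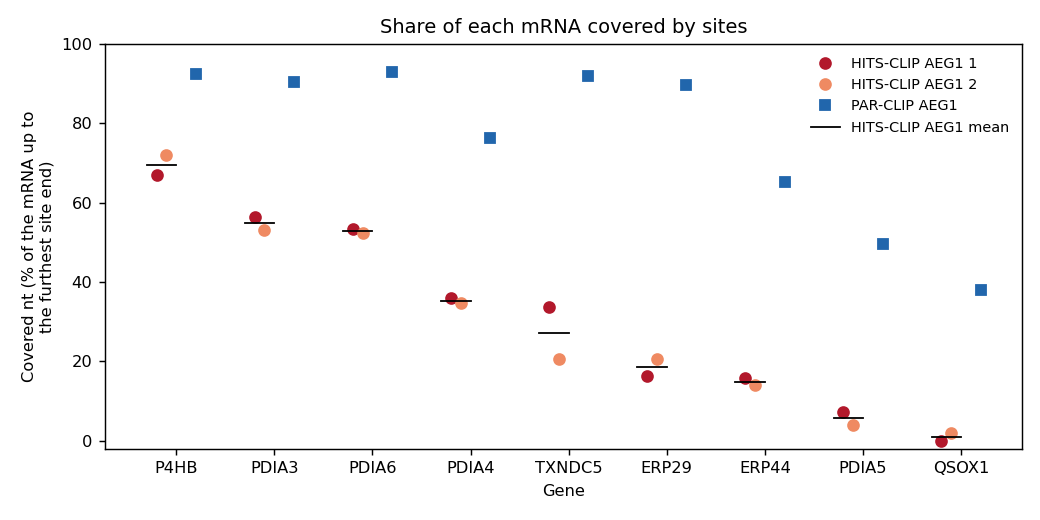
Share of each mRNA covered by sites (vertical axis, % of the nt up to the furthest site end) for both HITS-CLIP AEG1 replicates (circles, with their mean as a line) and PAR-CLIP AEG1 (squares). HITS-CLIP falls over the members to 0.948% on QSOX1, and PAR-CLIP, whose last site sets the length, lies above it on every member.

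Site positions repeated between the HITS-CLIP replicates. Of the 78 sites on the members in replicate 1, 63 shared at least 1 nt with a site of replicate 2 (80.8%, exact 95% interval 70.3 to 88.8, for counting error alone). Of the 61 in replicate 2, 58 did so with replicate 1 (95.1%, 86.3 to 99.0). Over all sites of the same libraries the shares were 63.2% and 71.3%. Sites on the members were wider, with medians of 69.5 and 78 nt against 51 and 52 nt over all sites, and wide sites overlap more readily. When at least 50% of each site had to overlap, the members' shares were 47.4% and 60.7%, against 49.2% and 55.5% over all sites, so the members were not shown to repeat better than other mRNAs.

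Counted per nt, the share of positions covered in either replicate that was covered in both was 81.9% on P4HB, 75.2% on ERP29, 75.1% on PDIA6, 70.6% on PDIA3, 62.8% on PDIA4 and 60.6% on ERP44. It was 39.5% on TXNDC5 and 12.4% on PDIA5, and 0 on QSOX1. The median over the 1321 genes with sites in both replicates was 46.3%. Wide cover of an mRNA raises this share by itself, and no allowance was made for it, so members above the median were not shown to repeat better. The highest-scoring site of a member overlapped between replicates for 4 of the 8 members with sites in both, namely PDIA3, PDIA6, ERP29 and ERP44. How often this holds over all genes was not counted, so whether 4 of 8 is high or low is unknown.

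Every HITS-CLIP site on the members lay at least in part within a PAR-CLIP site, for 78 of 78 sites of replicate 1 and 61 of 61 of replicate 2. The lower exact 95% bounds, for counting error alone, were 95.4% and 94.1%. Over all sites 90.2% and 90.4% overlapped a PAR-CLIP site. On P4HB, PDIA3, PDIA6, TXNDC5 and ERP29, PAR-CLIP covered 89.6% to 92.9% of the mRNA up to its last covered base. Most sites there would share 1 nt with PAR-CLIP wherever they lay. The PAR-CLIP sites on the members were wider, with a median of 111 nt against 73 nt over all PAR-CLIP sites. With at least 50% of each site required to overlap, the order turned, to 6.41% and 6.56% of the members' sites against 16.6% and 16.6% of all sites. In the other direction 29 of the 71 PAR-CLIP sites on the members (40.8%) overlapped a HITS-CLIP site of either replicate, against 7.5% of all PAR-CLIP sites. Of all PAR-CLIP sites, 61.8% were on mRNAs with no HITS-CLIP site, and among those on mRNAs that had one, 19.6% overlapped a HITS-CLIP site. The 42 PAR-CLIP sites without a HITS-CLIP counterpart were 13 on QSOX1, 6 each on PDIA4, PDIA5, ERP44 and TXNDC5, 3 on ERP29 and 1 each on PDIA3 and PDIA6, with none on P4HB. The members with more sites in each HITS-CLIP AEG1 library than in PAR-CLIP AEG1 were P4HB, PDIA3, PDIA4 and PDIA6, 4 of 9, where 2.47% of listed genes met this rule; PAR-CLIP joined neighbouring stretches of these mRNAs into wide sites, such as nt 418 to 1232 of PDIA6 over 5 and 4 HITS-CLIP sites.

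On the 8 members other than QSOX1, 13 of the 29 PAR-CLIP sites without a counterpart lay beyond the last HITS-CLIP site, 4 of 6 on PDIA4 and 4 of 6 on TXNDC5. The same share was not counted over all genes, so this count is not read as a trait of the members. HITS-CLIP sites reached 98.6% of the furthest PAR-CLIP position on P4HB, 93.4% on PDIA6, 92.4% on PDIA3, 84.0% on PDIA5 and 76.6% on PDIA4. They reached 65.3% on ERP29, 63.0% on ERP44 and 62.2% on TXNDC5. The median over these 8 members was 80.3%, and 69.1% over the 1244 genes with sites in all 3 AEG1 libraries. The HITS-CLIP libraries held fewer sites in all than PAR-CLIP AEG1, and the part of site number or read depth in this reach was not tested. On PDIA4, HITS-CLIP sites ended at nt 2254 and 2250 and 4 PAR-CLIP sites followed up to nt 2943. On TXNDC5 they ended at nt 1796 and 1211, and 4 PAR-CLIP sites beyond them ran to nt 2887.

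Scores could be set side by side between libraries within an mRNA. Some sites had a score equal, within 1e-06, to that of a site of another library on the same mRNA. Among the members these were 18 of 78 and 16 of 61 sites of the HITS-CLIP replicates and 11 of 71 of PAR-CLIP. As shares these were 23.1%, 26.2% and 15.5%, against 37.5%, 37.2% and 5.17% over all genes. Here 2 to the power of the score is summed over the sites of an mRNA in a library and called its summed score, given in log2. The sums are not scaled by library, the sources used here do not say what a score step stands for, and the sites were called separately in each library, so a sum moves with how much of the mRNA was called. Each is therefore given with the covered length and per covered nt, and is not read as a difference in bound RNA.

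On P4HB the summed score was 8.08 and 8.17 in HITS-CLIP AEG1, over 1712 and 1839 covered nt, against 7.66 in PAR-CLIP AEG1 over 2356 nt. On PDIA3 it was 8.34 and 8.27 over 1121 and 1057 nt, against 8.32 over 1800 nt in PAR-CLIP. On PDIA6 it was 6.94 and 6.75 over 1003 and 986 nt, against 7.32 over 1750 nt, and on PDIA4 9.22 and 9.01 over 1059 and 1020 nt, against 9.75 over 2244 nt. HITS-CLIP covered less than PAR-CLIP on all 4.

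On the other members the covered lengths differed more. ERP29 had summed scores of 9.22 and 9.43 over 175 and 221 nt in HITS-CLIP, against 10.64 over 961 nt in PAR-CLIP. TXNDC5 had 7.83 and 7.28 over 977 and 598 nt against 9.21 over 2653 nt. ERP44 had 9.01 and 8.71 over 285 and 253 nt against 10.74 over 1175 nt, and PDIA5 7.10 and 6.59 over 134 and 75 nt against 9.34 over 905 nt. QSOX1 had no site in HITS-CLIP replicate 1, 7.86 over 45 nt in replicate 2 and 10.58 over 901 nt in PAR-CLIP.

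The HITS-CLIP mean minus PAR-CLIP difference of the summed score had a median of -0.98 over the 8 members with all values, against -2.54 over the 1244 genes with all values (middle 50% from -3.62 to -1.28). Per covered nt this contrast was lost. The difference was then positive on all 8 members, from 0.14 on TXNDC5 to 0.98 on ERP29, with 0.88 on P4HB, and its median was 0.58 over the members and 0.54 over all 1244 genes. The replicates' summed scores differed by a median of 0.21 on the members and 0.50 over the 1244 genes, and by at most 0.55 on a member (TXNDC5). There is 1 PAR-CLIP library, so the differences carry no test.

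**Figure D4:**
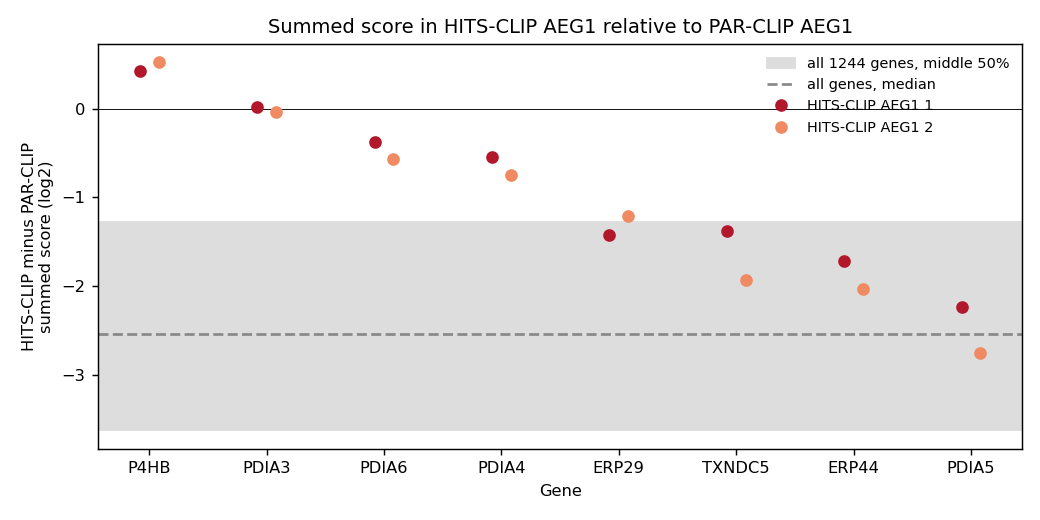
HITS-CLIP minus PAR-CLIP summed score (vertical axis, log2, not divided by covered length) for 8 members, with 1 point per HITS-CLIP AEG1 replicate; the band and the broken line give the middle 50% and the median over 1244 genes. P4HB lies above 0 in both replicates and PDIA5, the lowest, near the median of all genes.

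The remaining genes of disulfide formation were read from lists, again by the number with a site in both HITS-CLIP AEG1 libraries, which 16.1% of listed genes had. Of 16 other proteins of the isomerase family, 7 did. These were the membrane-bound thioredoxin proteins TMX1 (8 and 4 sites) and TMX2 (4 and 5), TXNDC12 (3 and 2), TXNDC16 (1 and 1), AGR2 (3 and 2), the reductase DNAJC10 (2 and 1) and the selenoprotein SELENOF, listed as SEP15 (2 and 2). TMX3, TXNDC11 and TXNDC15 had 10 PAR-CLIP sites each but 0 and 0, 0 and 0, and 0 and 1 in HITS-CLIP. PDIA2, PDILT, AGR3 and SELENOM had no site in any library. Such genes are not among those behind the 16.1%. Without them this list and those after it hold 12, 5, 6 and 18 genes.

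Of 8 genes in the list on oxidation of the isomerases and related oxidases, 5 had sites in both replicates. The oxidase ERO1A, listed as ERO1L, had 7 and 6 sites and 12 in PAR-CLIP, and PRDX4, which uses peroxide to make disulfides, 6 and 5 and 4 in PAR-CLIP. The vitamin K epoxide reductases VKORC1 and VKORC1L1 had 3 and 2, and 1 and 1. QSOX2, the paralog of QSOX1, had 2 and 2 sites and 23 in PAR-CLIP. Of 7 partners of the isomerases, 6 had sites in both, led by the lectins CANX (15 and 14) and CALR (12 and 11), which act with PDIA3. The peptide-loading protein TAPBP had 6 and 5. The partners of P4HB had fewer, with 3 and 4 on MTTP, 2 and 3 on P4HA2 and 1 and 1 on P4HA1. CALR was the only gene of these 3 lists with a control site, 1 in the PAR-CLIP control.

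Thioredoxin-fold and redox proteins outside the ER share the chemistry of the members but not their place. Of 19, only thioredoxin TXN itself had a site in both replicates (1 and 1), while 18 had PAR-CLIP sites. By replicate 1 alone 3 had a site (TXN, PRDX1 and PRDX3), and with at least 2 sites required in both replicates the count was 0. TXNRD1, a thioredoxin reductase, had 25 PAR-CLIP sites and none in HITS-CLIP, and the mitochondrial peroxiredoxin PRDX3 had 10 PAR-CLIP sites and 1 and 0 in HITS-CLIP. PRDX6 and the glutathione reductase GSR had 9 PAR-CLIP sites each and none in HITS-CLIP. None of the 19 had a control site. The lists are described by their counts, and the difference between them was not tested.

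**Figure D5:**
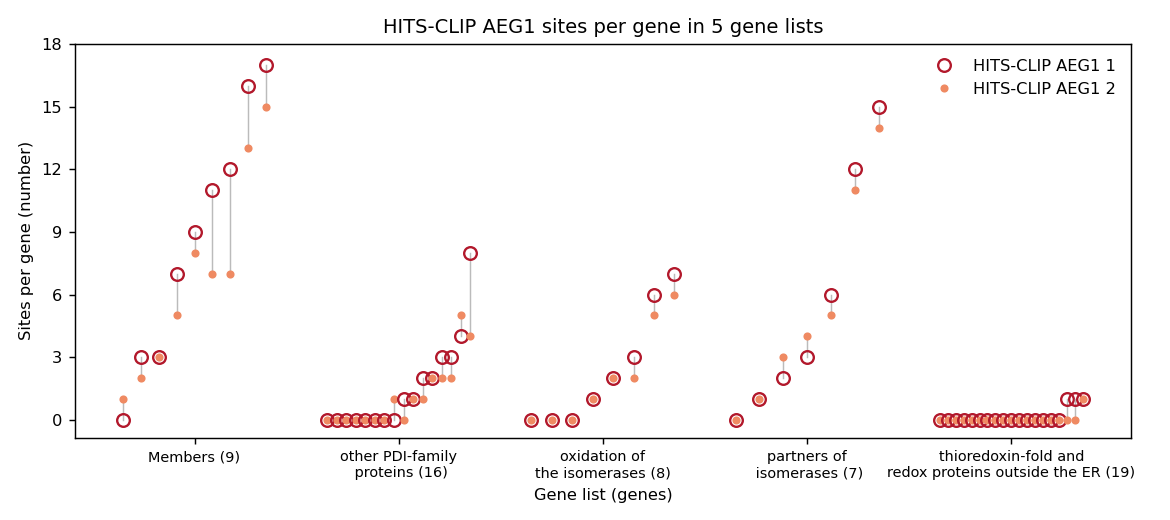
HITS-CLIP AEG1 sites per gene (vertical axis) for the 9 members and 4 lists of related genes, with replicate 1 as open circles and replicate 2 as filled circles joined per gene. The members and the partners of the isomerases reach 17 and 15 sites, and no redox protein outside the ER exceeds 1.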

How the data were processed

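Per the labels' protocols, lysates were partly digested with RNase I, precipitated with an anti-HA antibody and sequenced as 50 nt single reads. Per the submitters' processing notes, Bowtie was used, with no version stated; the sources used here do not give the reference, the site caller or its threshold. The deposited files list, for each library, sites on 1 RefSeq mRNA per gene with a score by the authors, taken as log2 from its values, with no read counts or depth.

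Members and gene lists were chosen with earlier results of these data known. Members were matched on the deposited symbol; other lists also through the RefSeq gene table (GRCh38.p14), in which 8146 of 8204 mRNAs matched by accession, 30 by symbol and 20 by synonym. Starts were read as 0-based and are printed 1-based. The genes named from each list are those with a site in both HITS-CLIP AEG1 libraries and the 3 with most PAR-CLIP sites, ties included. Overlap meant at least 1 nt. Shares carry exact Clopper-Pearson 95% intervals. Counting was tested on simulated site lists. Because sites and not read counts were at hand, no count model was run. Alternatives covered sites over 25 nt, sites above the median score of their library, stricter overlap, covered nt, other thresholds and single replicates; those for reach and summed score were added after the data were seen. Calculations used Python 3.11.15, pandas 2.3.3 and scipy 1.17.1.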

Additional observations from a re-analysis of the deposited data

How the results depend on the processing

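Of 47 alternatives of the main values, 35 left the value within its spread, or within 1.5 times for counts, and none turned the direction of the value itself. This count leaves out comparisons with all sites or all genes. With 50% overlap required, the members fell below all sites in PAR-CLIP cover, and in repeats of replicate 1. Division by covered nt, not among the 47, took the members' median HITS-CLIP minus PAR-CLIP summed score from -0.98 to 0.58. Restricting to sites above the median score of their library changed most. It left 2 members called in HITS-CLIP, a HITS-CLIP AEG1 minus control difference of 6 sites and a PAR-CLIP difference of 18, shares of 66.7% of sites repeated between replicates and 91.7% covered by PAR-CLIP, a reach of 65.4% and a HITS-CLIP minus PAR-CLIP summed score of -1.84 (2 members with values), and 0 redox genes outside the ER. P4HB, with a highest HITS-CLIP score of 5.98, lies wholly below the library medians of 6.34 and 6.39. So do PDIA5 (highest 6.36), PDIA6 (5.51) and TXNDC5 (6.0). Why the scores of these members are low was not tested, and scores may not share a scale between mRNAs. Requiring overlap of 50% of each site gave 53.2% repeated and 6.47% covered by PAR-CLIP. With at least 2 sites, 0 redox genes outside the ER remained. Leaving out single HITS-CLIP libraries gave 8 to 9 members called, differences of 60.5 to 77.5 sites, and 1 to 3 redox genes outside the ER, the 3 without HITS-CLIP AEG1 replicate 2. QSOX1 was called without HITS-CLIP AEG1 replicate 1. With replicate numbers as pairs (replicate block), AEG1 exceeded the control of its number in both pairs for 8 members; no fit underlies this count. The unknown read depth limits what an absent site means.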

Other observations

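On the members, 2 HITS-CLIP AEG1 sites had the same first and last base in both replicates, nt 757 to 889 of P4HB (scores 5.05 and 4.72) and nt 642 to 684 of ERP44 (6.23 in both). Over all genes 128 of 6378 replicate 1 sites (2.01%) did, against 2 of 78 (2.56%) on the members.

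On QSOX1 and PDIA5 no PAR-CLIP site was wider than 138 nt, while PDIA3 held PAR-CLIP sites of 1325 and 402 nt.

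The centre of the summed score along the mRNA, from 0 at the first base to 1 at the furthest site end, lay nearer the start in both HITS-CLIP libraries than in PAR-CLIP on 7 of 8 members, against 58.1% of 1244 genes. The shift was widest on TXNDC5, with 0.279 and 0.287 in HITS-CLIP against 0.496 in PAR-CLIP, and PDIA5 was the exception with 0.440 and 0.522 against 0.478.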
